A study of Mus musculus with 6 samples.

Results

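The gamma-crystallins are small, soluble structural proteins that fill the fiber cells of the ocular lens. They belong with the beta-crystallins to a superfamily of compact proteins whose dense, stable packing gives the lens its transparency and refractive power. In the mouse the genes of the main cluster are switched on as lens cells elongate into fiber cells, under factors that include Maf, Sox, Prox1 and Hsf4 proteins, and mutations in several of them cause cataract. The 6 members described here, Cryga, Crygb, Crygd, Crygf, Crygn and Crygs, are those gamma-crystallin genes that have a probe set naming them alone, out of 12393 genes with such a probe set. Each member was read by exactly 1 such probe set. Crygc and Cryge have 0 and are not described, apart from a probe set shared by Crygc and Crygb.

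Whole-eyeball RNA was profiled from 3 pups with Brg1 cKO and 3 that were wild type, all on a mixed strain background and at postnatal day 1, with 1 array per eyeball. The Brg1 cKO pups were homozygous for floxed alleles of Brg1 (Smarca4), the ATPase of SWI/SNF chromatin remodeling complexes, and carried Le-Cre, a transgene driven by a Pax6 enhancer and active in embryonic ectoderm of the head from which lens, cornea and eyelid epithelium form. The controls are labelled wild type and were littermates per the methods, the study also used mice with floxed Brg1 as controls, and no Le-Cre control was arrayed. Tissues of the eyeball that do not come from this ectoderm, such as the retina, are not targeted, the study describes incomplete deletion in many embryos and occasional germline deletion with this Cre, and neither was checked here. The severity of the eye defect varies among mutants of this cross, and the labels give no eye phenotype for the pups arrayed. The question was which eye transcripts differ when Brg1 is lost from this ectoderm.

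The genes fall on 3 chromosomes. In the RefSeq gene order of mouse assembly GRCm38.p6, Crygd, Crygb and Cryga lie on chromosome 1 in a run of 5 neighbouring protein-coding genes that begins with Cryge and also holds Crygc. Crygf lies on the same chromosome, at position 10 counted from Cryge at position 1. Crygn lies on chromosome 5 and Crygs on chromosome 16. The 100 bases just before each annotated start, from the RefSeq promoter table of GRCm38.p6, are shown because all 6 genes read lower in Brg1 cKO and because the chromosome 1 members share short stretches at nearly the same distance from the start. They are chr1:65103364-65103463 (minus strand) for Cryga, chr1:65082291-65082390 (minus) for Crygb, chr1:65063441-65063540 (minus) for Crygd, chr1:65926422-65926521 (plus) for Crygf, chr5:24757849-24757948 (minus) for Crygn and chr16:22811411-22811510 (minus) for Crygs. All lie upstream of the annotated transcript and are written 5′ to 3′ on the gene's strand. Capitals mark TATATA, with TATAAA in Crygs, and the words CAGCAG and TTTGTG.
Cryga: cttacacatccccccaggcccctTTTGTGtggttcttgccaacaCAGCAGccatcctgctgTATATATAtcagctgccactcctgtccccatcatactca
Crygb: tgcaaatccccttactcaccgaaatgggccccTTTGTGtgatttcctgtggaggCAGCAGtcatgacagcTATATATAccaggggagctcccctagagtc
Crygd: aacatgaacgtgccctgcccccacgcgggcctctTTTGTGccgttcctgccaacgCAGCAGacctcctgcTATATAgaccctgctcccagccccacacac
Crygf: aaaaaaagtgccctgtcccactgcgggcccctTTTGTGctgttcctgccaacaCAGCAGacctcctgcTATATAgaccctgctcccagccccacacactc
Crygn: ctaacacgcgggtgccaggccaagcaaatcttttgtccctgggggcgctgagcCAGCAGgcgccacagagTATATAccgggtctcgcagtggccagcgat
Crygs: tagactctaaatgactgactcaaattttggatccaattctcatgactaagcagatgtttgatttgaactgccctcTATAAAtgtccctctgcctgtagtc

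The window searched for motifs was the 250 bases before the start, on both strands, and the same window of all 32851 promoter entries gave the background share. The word TATATA, chosen after the sequences were seen, was present in 5 of the 6 members and in 5.25% of all entries. The match nearest the start began at position -37 in Cryga, -28 in Crygb, -30 in Crygd, -32 in Crygf and -30 in Crygn, counted back from the annotated start. Crygs instead held TATAAA, the TATA box sequence, from -25 to -20, a word found in 12.4% of all entries.

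The words CAGCAG and TTTGTG were also picked from the sequences themselves. CAGCAG was present in all 6 members, against 25.4% of all entries, and in the members other than Crygs a copy lay between -56 and -40. TTTGTG was present in the 4 chromosome 1 members and in 15.6% of all entries, beginning between -77 and -66 in those members. Crygd and Crygf shared an unbroken run of 45 bases that starts with CAGCAG, and over the full 300-base entries that run was found in 3 entries, those of Crygd, Crygf and Cryge. The promoters of Crygn and Crygs held no TTTGTG on either strand.

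Of the factor motifs searched, TGCTGA, the core of a Maf recognition element, was found in Cryga, Crygn and Crygs, or 3 of 6 members against 16.1% of all entries. In each of these members the Maf core overlaps a CAGCAG match, in Crygs the only one, so the counts of these words are not separate. ACAAAG or ACAATG, cores of Sox sites, were found in Cryga, Crygb, Crygd and Crygs, or 4 of 6 members against 25.2% of all entries. In Crygb the Sox core, on the strand opposite the gene, overlaps the TTTGTG word. GAANNTTC, a core of heat shock elements, was found in 0 of 6 members and 6.69% of all entries.

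**Figure D1:**
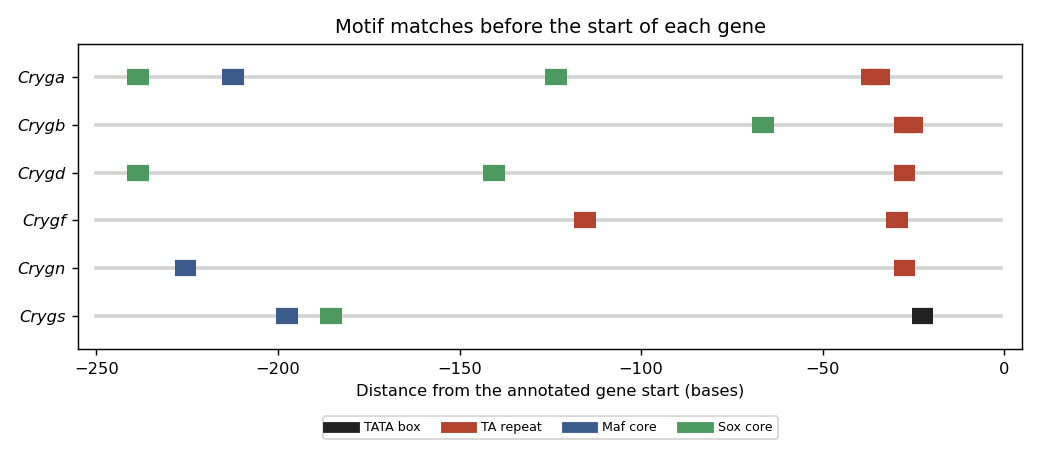
Matches of the searched motifs in the 250 bases before each gene's start, with distance in bases from the annotated start on the horizontal axis and 1 line per gene. The TA repeat (red) sits in the last 40 bases in 5 genes, and the TATA box (black) takes that place in Crygs.

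All 6 gamma-crystallins read lower in every Brg1 cKO eyeball than in any wild-type eyeball. Their median difference was -2.4 on the log2 scale, a 5.28-fold lower intensity, against a median of 0.02 over all 12393 genes. Across all 22626 probe sets, 6.44% had all Brg1 cKO values below all wild-type values, against 6 of 6 members. At an unadjusted limma p under 0.05 and in the lower direction, 5 of 6 members passed, against 3.87% of all probe sets. That count rests on variances shared between probe sets. Correlation with genotype, which uses each probe set's own spread, passed 1 of 6 members at an unadjusted p under 0.05 and a fold over 1.5. With it 1.64% of all probe sets passed in the lower direction. After Benjamini-Hochberg adjustment over all probe sets 0 of 6 members passed 0.05, where 0.203% of all probe sets passed in the lower direction and 0.508% in either direction. An exact two-sided permutation test of each member's 6 values gave p = 0.1, the smallest that 3 against 3 arrays can give. In whole eyeballs, fewer lens fiber cells and less gamma-crystallin RNA per cell cannot be told apart.

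The Brg1 cKO eyeballs differed strongly among themselves. The median shift of the 6 members from the wild-type mean was -2.37 in replicate 1, -0.54 in replicate 2 and -4.68 in replicate 3 on the log2 scale. Each wild-type array, set against the average of its group's remaining arrays, had a median shift of -0.21, 0.23 or -0.08. Replicate 2 was the mildest and replicate 3 the lowest Brg1 cKO array for all 6 members. The SD among Brg1 cKO arrays was 8.09 times that among wild-type arrays for Crygn and 15.6 times for Crygd and Crygs, the extremes of the family.

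**Figure D2:**
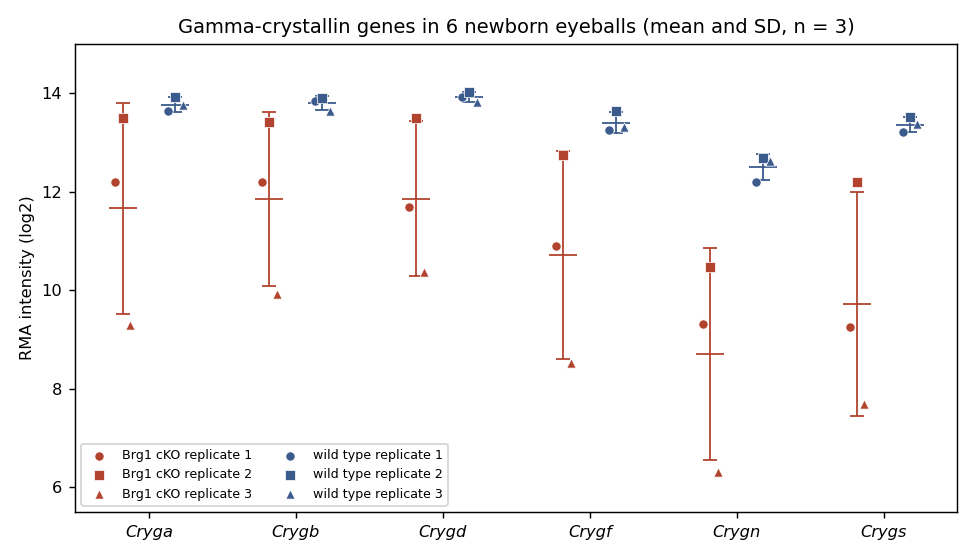
RMA intensity (log2) of the 6 gamma-crystallin genes in each eyeball, with horizontal bars for the mean and whiskers for the SD of 3 arrays. Every Brg1 cKO point (red) lies below every wild-type point (blue) of its gene, the red points spread over 3.12 (Crygd) to 4.49 (Crygs) log2 units and the blue over at most 0.49.

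Crygn and Crygs, the members outside chromosome 1, showed the largest differences. Crygn encodes gamma-N-crystallin, whose gene structure combines features of beta- and gamma-crystallin genes. It read log2 9.32, 10.47 and 6.31 in Brg1 cKO replicates 1 to 3, against 12.2, 12.69 and 12.62 in wild-type replicates 1 to 3. The groups did not overlap, and the gap between the lowest wild-type and the highest Brg1 cKO array, 1.73, was the widest of the family. The mean was 8.7 ± 2.15 in Brg1 cKO and 12.5 ± 0.27 in wild type (SD, n = 3 each), a log2 difference of -3.8 (SE 0.94), or 14-fold lower, with a limma adjusted p of 0.233. On the linear scale the Brg1 cKO eyeballs held 11.0%, 24.4% and 1.37% of the wild-type geometric mean.

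Crygs encodes gamma-S-crystallin, the gamma-crystallin of the younger, outer fiber cells, whose expression begins later than that of the chromosome 1 cluster. It read log2 9.26, 12.2 and 7.7 in Brg1 cKO replicates 1 to 3, against 13.22, 13.51 and 13.37 in wild type. Replicate 2 stood well above the other Brg1 cKO eyeballs, yet 1.02 below the lowest wild-type array. The mean was 9.72 ± 2.28 in Brg1 cKO and 13.36 ± 0.15 in wild type (SD, n = 3 each), a log2 difference of -3.65 (SE 0.99), or 12.5-fold lower, with a limma adjusted p of 0.288. The Brg1 cKO eyeballs held 5.81%, 44.5% and 1.97% of the wild-type geometric mean. Ordered from the most negative difference among 22626 probe sets, Crygn stood at position 11 and Crygs at position 13.

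The 4 chromosome 1 members, which encode the classical gamma-crystallins of the lens core, had a median log2 difference of -2.09, or 4.25-fold lower. Crygf had the largest difference of them. It read log2 10.89, 12.74 and 8.52 in Brg1 cKO, against 13.25, 13.64 and 13.31 in wild type. The groups were separated by 0.52, and the log2 difference was -2.69 (SE 0.92), with a limma adjusted p of 0.469. Its probe set is of a type that can also bind related transcripts.

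Cryga read log2 12.19, 13.49 and 9.29 in Brg1 cKO, against 13.64, 13.93 and 13.76 in wild type. Its groups came closest of all, separated by 0.14. Brg1 cKO replicate 2 held 82.3% of the wild-type geometric mean and replicate 3 held 4.48%. The log2 difference was -2.12 (SE 0.93), with a limma adjusted p of 0.612. Its unadjusted limma p of 0.0561 missed 0.05, alone in the family under that model.

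Crygb read log2 12.2, 13.41 and 9.93 in Brg1 cKO, against 13.85, 13.91 and 13.64 in wild type. The groups lay 0.23 apart, with a log2 difference of -1.95 (SE 0.77) and a limma adjusted p of 0.554. The probe set shared by Crygc and Crygb read log2 12.74, 13.76 and 10.46 in Brg1 cKO, against 14.21, 14.23 and 14.05 in wild type. Its log2 difference of -1.85 (SE 0.74, limma adjusted p 0.562) was close to that of Crygb alone, and the share of Crygc in it cannot be read.

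Crygd read log2 11.69, 13.5 and 10.38 in Brg1 cKO, against 13.92, 14.02 and 13.82 in wild type. The groups lay 0.31 apart, with a log2 difference of -2.06 (SE 0.69) and a limma adjusted p of 0.448. Without Brg1 cKO replicate 2, Crygd (log2 difference -2.88, limma adjusted p 0.028) and Crygs (-4.88, limma adjusted p 0.00638) passed the threshold, 2 of 6 members, against 0.499% of all probe sets in the lower direction. Without Brg1 cKO replicate 3 the log2 differences were smaller, between -2.64 for Crygs and -0.93 for Cryga, and 0 of 6 members passed. The chromosome 1 members are close copies of each other, and how far their transcripts reach each other's probes was not tested. Wild-type values of the members also lie close to the top of the scale, least so for Crygn (log2 12.2 to 12.69). The highest log2 value of any probe set was 14.25 to 14.33 in Brg1 cKO arrays and 14.38 to 14.54 in wild-type arrays.

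Whether the members differed in the size of their change was read from the difference between 2 members within each array, compared between genotypes over all 15 pairs. In 11 pairs the Brg1 cKO and wild-type arrays did not overlap, each at the smallest exact two-sided permutation p of 0.1. The smallest exact permutation p after Benjamini-Hochberg adjustment over the 15 pairs was 0.136, so that 0 pairs passed. The pairs reuse the same 6 genes, and no share over other gene pairs was computed to set beside the 11. All 8 pairs that set Crygn or Crygs against a chromosome 1 member were among the 11, each with the more negative value for Crygn or Crygs. Wild-type means were log2 13.4 to 13.92 for the chromosome 1 members, 13.36 for Crygs and 12.5 for Crygn. Signals nearer the top of the scale understate differences more, and the part of this in the pairs was not tested. Of the 6 pairs within chromosome 1, the 3 with Crygf did not overlap, with Crygf the more negative, and the other 3 did. The 95% interval of the difference, a pooled-variance t interval not adjusted for the number of pairs, excluded 0 in 10 of the 15 pairs. It assumes the same spread in both genotypes, and can be too narrow where the spreads differ. For Crygs against Cryga the Brg1 cKO arrays gave -2.52, -0.89 and -1.18, and the wild-type arrays -0.01, -0.01 and 0.02, relative to the wild-type mean. The count of 10 is therefore uncertain.

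The pair of Crygn and Cryga was the steadiest, and is described because its SE was the smallest of the 15 pairs. Relative to the wild-type mean, the log2 difference Crygn minus Cryga was -1.59, -1.75 and -1.71 in Brg1 cKO replicates 1 to 3, although Cryga itself was shifted by -1.59, -0.28 and -4.48 in the same arrays. An SE picked as the smallest of 15 tends to understate the spread, so the 95% interval of this pair is likely too narrow. The change of the difference was -1.69 (SE 0.1, 95% interval -1.96 to -1.41, exact permutation p = 0.1). For Crygs against Cryga it was -1.53 (SE 0.5, 95% interval -2.92 to -0.13), with -2.52, -0.89 and -1.18 in the 3 Brg1 cKO arrays. Crygs was thus furthest below Cryga in replicate 1.

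Crygn and Crygs were not told apart. Their difference was -0.16 (95% interval -1.7 to 1.39, exact permutation p = 0.9), with Crygs the lower in replicate 1 and Crygn the lower in replicates 2 and 3. Cryga against Crygb gave -0.17 (95% interval -0.85 to 0.52, exact p = 0.6), Cryga against Crygd -0.06 (95% interval -1.37 to 1.25, exact p = 1.0) and Crygd against Crygb -0.11 (95% interval -0.9 to 0.68, exact p = 0.8). These intervals leave room for differences of about the size seen for Crygf against Cryga, which was -0.57 (95% interval -1.08 to -0.06).

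**Figure D3:**
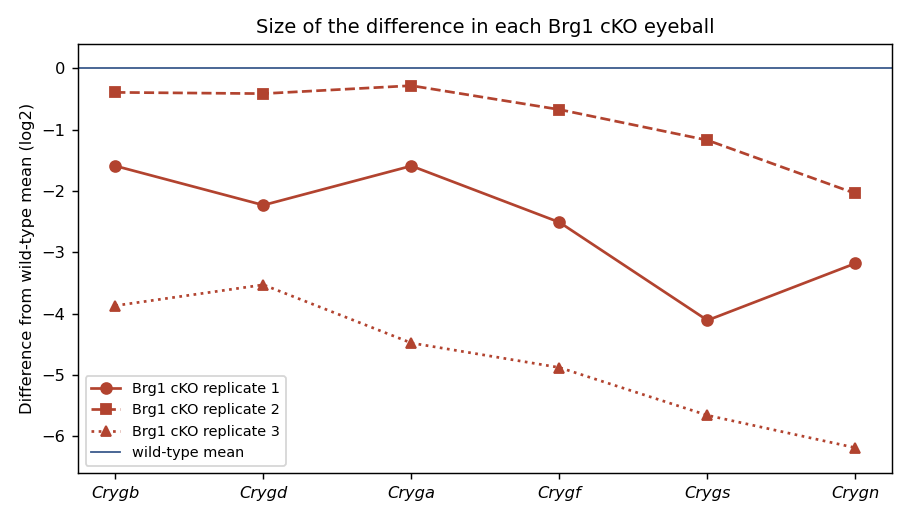
Difference from the wild-type mean (log2) of each member in the 3 Brg1 cKO eyeballs, with members ordered by their mean difference and lines joining values of 1 eyeball. Replicate 2 (dashed) stays nearest 0, replicate 3 (dotted) lies lowest, and the order of Crygn and Crygs differs between replicate 1 (solid) and the others.

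Over the 6 arrays the members followed each other closely, with Pearson r between 0.938 for Cryga with Crygs and 0.996 for Cryga with Crygb. These correlations describe 6 arrays that include the genotype difference and share their normalization. Among 9768 genes above the 25th percentile of all values, 4 had an r of at least 0.99 with the mean profile of the members, namely Crybb1 (0.9986), Cryba4 (0.9979), Crybb3 (0.9956) and Capn3 (0.9906). The first 3 are beta-crystallins, and Capn3 encodes a calcium-dependent protease with lens-specific forms in rodents. Capn3 read log2 8.46, 9.63 and 7.02 in Brg1 cKO, against 10.15, 10.8 and 10.16 in wild type, the same order of eyeballs as in the family. The next genes were Cryba1 (0.9875), Dock5 (0.9858), Wnt5b (0.9841), Acsm1 (0.9772), Cryba2 (0.9758) and Sry (0.972). Dock5 encodes a guanine nucleotide exchange factor and Wnt5b a secreted Wnt ligand. The Sry probe set read between log2 5.46 and 6.12 in Brg1 cKO and between 6.36 and 6.5 in wild type, and it is of the type that can bind other transcripts. Wild-type arrays, with the female-cell RNA Xist at log2 12.61 to 12.92, read higher than Brg1 cKO replicate 1 (5.97), with Xist at 4.88. Its signal was therefore not taken as Sry RNA.

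The alpha- and beta-crystallins, the other major proteins of the fiber cell, were the closest comparison. Over all 12393 genes, 5839 had a lower mean in Brg1 cKO and 791 had all Brg1 cKO values below all wild-type values. All 8 measured alpha- and beta-crystallins had a lower mean, with a median log2 difference of -1.79, 7 of 8 without overlap and 0 past the limma threshold. In Brg1 cKO replicates 1 to 3 these genes had a median shift of -2.18, -0.63 and -2.97. The shift of the gamma-crystallins minus that of the alpha- and beta-crystallins was therefore -0.19 and 0.09 in replicates 1 and 2 and -1.71 in replicate 3. The value in replicate 3 depends on which crystallins are set beside the family. In that eyeball the beta-crystallins Crybb3, Cryba2, Cryba4 and Crybb1 were shifted by -4.71, -4.22, -4.11 and -3.43, within or next to the range of the gamma-crystallins, which was -6.19 to -3.53. Crybb2 (-2.51), Cryaa (-1.7), Cryab (-1.6) and Cryba1 (-1.21) were shifted less, and the wild-type mean of Cryba1, log2 14.47, lies at the top of the scale, where differences are understated. None of these differences between crystallins was tested.

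Of those genes the 3 with the smallest p were Cryba2, Cryaa and Cryab. Cryba2, a beta-crystallin, read log2 10.57, 12.64 and 9.56 in Brg1 cKO, against 13.89, 13.74 and 13.72 in wild type, a difference of -2.85 (SE 0.69, limma adjusted p 0.221). Cryaa, the lens alpha-crystallin chaperone, read log2 12.43, 13.41 and 12.27 in Brg1 cKO, against 13.93, 14.01 and 13.97 in wild type, a difference of -1.26 (SE 0.31, limma adjusted p 0.221). In replicate 3 Cryaa held 30.8% of its wild-type geometric mean. Cryab, the alpha-crystallin also found outside the lens, differed by -1.55 (SE 0.42, limma adjusted p 0.296), and its lowest Brg1 cKO array was replicate 1, not replicate 3.

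Genes of fiber cell structure and maturation had a median log2 difference of -2.51 over the 7 measured of 13 listed. Of these 7, 2 passed the limma threshold, both lower, against 0.203% of all probe sets in that direction. These were Caprin2 (-2.25, SE 0.3, limma adjusted p 0.0287), an RNA-binding protein of fiber cells, and Gja3 (-3.15, SE 0.43, limma adjusted p 0.0319), the fiber gap junction protein connexin 46. Gja3 read log2 3.95, 5.68 and 4.4 in Brg1 cKO. Replicates 1 and 3 lie below log2 4.84, the 25th percentile of all values, so the size of the Gja3 difference is uncertain. Tdrd7, an RNA granule protein needed for a clear lens, differed by -2.16 (SE 0.34, limma adjusted p 0.0535). In replicate 2 the fiber genes had a median shift of -1.66, 1.12 further from wild type than that of the gamma-crystallins. In replicate 3 it was -3.24, with the gamma-crystallin median 1.44 lower still. The value in replicate 3 depends on the fiber genes listed. In that eyeball Bfsp1 and Dnase2b were shifted by -6.32 and -5.82, and the other measured fiber genes by -3.42 to -0.31. The gamma-crystallins ran from -6.19 to -3.53. Dnase2b read log2 2.67 there, below log2 4.84, so the size of its shift is uncertain.

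Of 24 listed regulators of gamma-crystallin genes, 20 were measured, 12 of them lower and 8 higher in mean, with a median log2 difference of -0.08. All Brg1 cKO values lay below all wild-type values for 4 of the 20, against 791 of all 12393 genes. Whole-eyeball values include tissue that Le-Cre does not target, so they do not read these regulators in the lens alone. Prox1, a homeodomain factor of fiber cell differentiation, was the 1 regulator past the limma threshold, against 0.203% of all probe sets in the lower direction. It read log2 5.15, 4.63 and 5.19 in Brg1 cKO, against 6.64, 6.94 and 6.83 in wild type, a fall of 1.82 (log2 difference -1.82, SE 0.21, limma adjusted p 0.021). The Brg1 cKO values lie around log2 4.84, the 25th percentile of all values, so their order among the 3 eyeballs was not read.

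Hsf4, a heat shock factor of the postnatal lens, read log2 4.79, 5.54 and 3.28 in Brg1 cKO, against 6.84, 7.53 and 7.32 in wild type. Its log2 difference of -2.69 (SE 0.54) had a limma adjusted p of 0.126. The Brg1 cKO values of replicates 1 and 3 lie below that percentile, so the size of the difference and the order of these eyeballs are uncertain. Sox2 differed by -0.62 (SE 0.22, limma adjusted p 0.507) and Pax6, an early eye factor that also holds gamma-crystallin promoters down, by -0.33 (SE 0.29, limma adjusted p 0.827). Maf (0.19, SE 0.18), Sox1 (-0.09, SE 0.26) and Pitx3 (-0.19, SE 0.2) read at log2 5.56, 3.77 and 5.08 in Brg1 cKO and 5.37, 3.86 and 5.27 in wild type on average, not far from log2 4.84, below which 25% of all values lie. Hmga1 had no probe set naming it alone.

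The other cell types of the eyeball gave a mixed picture beside these values. Markers of neural retina (14 of 16 measured, median log2 difference 0.01), of pigment epithelium and melanocytes (8 of 10, 0.06) and of lens epithelium (8 of 8, -0.13) had 0 genes past the limma threshold in either direction. The lens epithelium list says little about that layer, since Foxe3, its most specific gene, averaged log2 4.54 in Brg1 cKO and 4.49 in wild type, below 4.84, and others such as Pax6 and Gja1 are also expressed elsewhere in the eye. The log2 of the summed retina markers ran from 14.29 to 15.08 in Brg1 cKO and from 14.62 to 14.87 in wild type. Cornea and surface epithelium markers, from tissue in which Le-Cre also acts, had a median difference of -1.75 and array shifts of -2.43, -1.89 and -0.9. Of these markers 3 of 10 passed the threshold, all lower, against 0.203% of all probe sets in that direction. The list median was least shifted in replicate 3, where the gamma-crystallins were lowest, but single markers differed. Krt12 and Krt15 were least shifted in replicate 2, as the gamma-crystallins were. Elf5 read log2 3.26, 3.53 and 3.39 in Brg1 cKO, below 4.84, so its order among the eyeballs was not read. Trp63, Aldh3a1, Ehf and Krt13 were least shifted in replicate 3, and Krt5, Krt14 and Pax6 were not lower in every Brg1 cKO array.

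Macrophage markers had a higher mean in Brg1 cKO for 12 of 12 genes, with a median difference of 1.11. Over all 12393 genes, 5839 had a lower mean. The threshold was passed by 1 marker (Cd14), against 69 of 22626 probe sets in the higher direction. Macrophage markers summed to log2 12.34 to 13.66 in Brg1 cKO and 11.31 to 11.85 in wild type. They were furthest up in replicate 2, at 1.52, against 0.63 and 1.01 in replicates 1 and 3. Skeletal muscle markers were shifted by -0.52, 0.67 and 0.42 in the Brg1 cKO arrays and by -0.32, -0.44 and 0.74 in the wild-type arrays, and the 5 measured erythroid markers had a median difference of -0.14, with 3 of the 5 averaging below log2 4.84 in wild type. The part of any of these cell types in the gamma-crystallin differences was not tested.

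**Figure D4:**
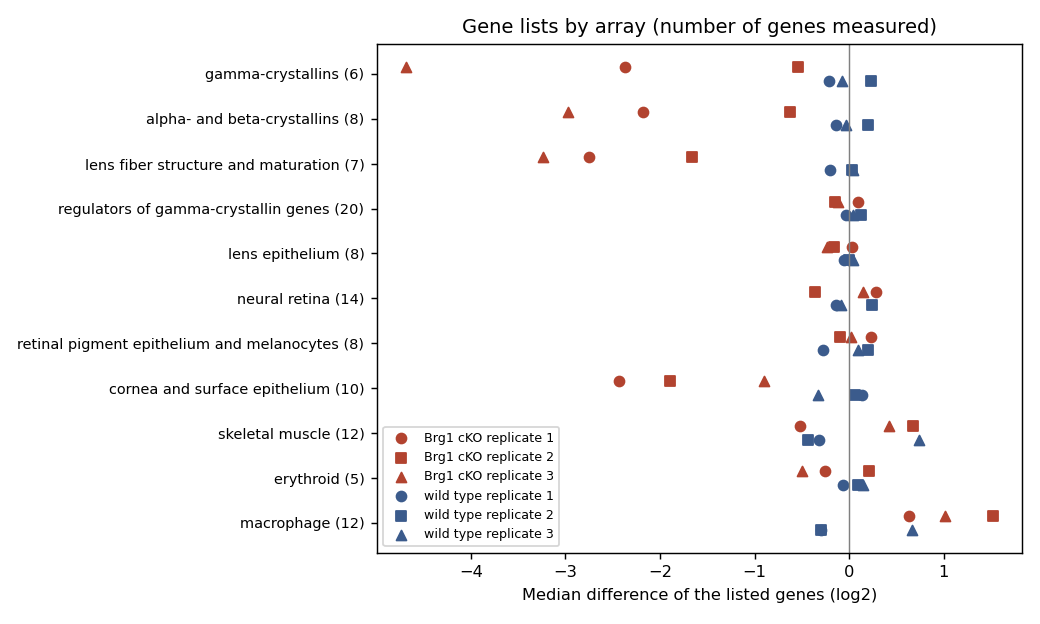
Median log2 difference of each gene list in every array, from the wild-type mean for Brg1 cKO (red) and, for wild type (blue), from the average of the group's remaining arrays. The gamma-crystallins reach -4.68 in Brg1 cKO replicate 3, while the retina, pigment epithelium and lens epithelium lists stay between -0.36 and 0.28 in all arrays.

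Across the series, median intensity per array was 180 to 185.5 in Brg1 cKO and 169.1 to 184.6 in wild type. The 3′ minus 5′ log2 signal of actin was 1.28, 1.34 and 0.98 in Brg1 cKO and 1.12, 1.01 and 0.93 in wild type, so that replicate 3, lowest in gamma-crystallins, had the lowest value of the Brg1 cKO arrays, within the wild-type range. For Gapdh it was 0.73, 1.05 and 0.73 in Brg1 cKO and 0.79, 0.87 and 0.75 in wild type, with replicate 2, the eyeball least changed in gamma-crystallins, above all other arrays. The part of these 3′ to 5′ differences in the gamma-crystallin values was not tested. Xist read log2 4.88 in Brg1 cKO replicate 1 and between 12.3 and 12.92 in the other arrays. By this RNA, replicate 1 reads as male and the others as female, so sex is not balanced between the genotypes. The part of sex in the gamma-crystallin differences was not tested. The brighter probe set of Smarca4 read log2 10.35, 9.93 and 9.98 in Brg1 cKO, against 10.11, 9.82 and 9.81 in wild type (log2 difference 0.18, SE 0.19, limma adjusted p 0.866). Since no source used here places it relative to the floxed exons and much of the eyeball is not targeted, it checks the labels neither way.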

How the data were processed

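Per the labels, 50 ng of total RNA from each of 6 postnatal day 1 eyeballs was amplified with the NuGEN Ovation system, biotin-labelled and hybridised to Affymetrix arrays. The authors deposited linear intensities made with RMA (robust multichip average: background adjustment, normalization between arrays and probe summary), with no version in the sources used here. Amplification of little RNA adds noise, and signals near either end of the scale understate differences.

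The intensities were converted to log2. Of 22690 rows, 64 array controls were left out. Genes came from the platform annotation, which can be old and names 1 gene for 20380 probe sets, several for 691 and none for 1555. Each gene was read by its probe set with the highest mean over 6 arrays. Genotypes were compared with limma 3.58.1 in R 4.3.3 on 22626 probe sets, two-sided, with Benjamini-Hochberg adjustment and a threshold of 0.05. Adjusted p-values in the report come from this model, apart from those over the 15 pairs of members, where exact permutation p-values were adjusted. The model's code was tested on simulated data. A log2 difference is the Brg1 cKO mean less the wild-type mean. Exact permutation tests used scipy 1.17.1. The number of arrays limits the precision, and p-values measure the spread between 3 eyeballs per group, which the series describes as biological replicates.

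Members and gene lists were chosen with earlier results of these data known. Values were given for the 6 members, for Smarca4, Maf, Sox1, Sox2, Pax6, Prox1, Hsf4 and Pitx3 (Hmga1 was also listed and had no probe set of its own) and any other regulator past the threshold, for the 3 genes with the smallest p in the alpha- and beta-crystallin and fiber lists, and for the 10 genes most like the members' mean profile. Single genes of a list were also named where they departed from its median. Promoters are from RefSeq (GRCm38.p6), where 6 of 6 members matched. Protein identity was planned and not computed, and no protein sequences were used here. Alternatives changed the filter, offset, normalization, moderation, array weights, replicate block, arrays included and test.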

Additional observations from a re-analysis of the deposited data

How the results depend on the processing

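All 6 members kept a lower mean in Brg1 cKO under each of the 14 alternatives. Leaving out 1 array at a time gave log2 differences of -3.03 to -0.93 for Cryga, -2.73 to -0.99 for Crygb, -2.88 to -1.32 for Crygd, -3.7 to -1.59 for Crygf, -4.69 to -2.61 for Crygn and -4.88 to -2.64 for Crygs, with a family median of -3.36 to -1.45 and 0 to 2 members past the threshold. The 2 members past it without Brg1 cKO replicate 2 were Crygd (-2.88) and Crygs (-4.88), and the cause was not tested. Under template matching as computed here (correlation with genotype at an unadjusted p under 0.05, and a fold over 1.5, the criteria the methods name), 1 member passed, Crygn (-3.8, unadjusted p 0.0382), against 1.64% of all probe sets in the lower direction. The limma adjusted p ranged over the alternatives from 0.259 to 0.912 for Cryga, 0.187 to 0.901 for Crygb, 0.028 to 0.855 for Crygd, 0.0763 to 0.853 for Crygf, 0.0728 to 0.568 for Crygn and 0.00638 to 0.682 for Crygs. With 32 added to the intensity, the 15 differences between members kept their sign.

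Counts of all probe sets past the threshold moved more, with 115 in the main setting, 16 with 32 added to the intensity, 190 with array weights, 820 with template matching and 24 to 216 when 1 array was left out. Array weights were lowest for Brg1 cKO replicate 2, at 0.465. Arrays of the 2 genotypes share replicate numbers only. Deviations of same-numbered arrays correlated at 0.06, 0.082 and 0.125, 0 arrays correlated best with their own number, and the replicate block left 45 calls and 0 members past the threshold, with limma adjusted p of 0.239 for Crygn, 0.266 for Crygs, 0.36 for Crygd and Crygf, 0.441 for Crygb and 0.525 for Cryga. Using other probe sets of a gene, or their mean, gave no value because each member has 1. With 3 arrays per group, intervals are wide, and values near the top of the scale understate differences between genotypes.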
